A study of Mus musculus with 9 samples.

Results

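The genes described here are 10 mouse genes for heat shock chaperones, taken as a fixed list by symbol from the 53801 genes of the count data: *Hspa1a*, *Hspa1b*, *Hsph1*, *Dnajb1*, *Hspa8*, *Hsp90aa1*, *Hsp90ab1*, *Hspa5*, *Hspd1* and *Hspe1*. They were measured by RNA-seq in monocytes/macrophages sorted from the brain and blood of mice after ischemic stroke. All mice were male C57BL/6J, 9 weeks old. In the stroke groups the left distal middle cerebral artery and the left common carotid artery were occluded for good (dMCAO), and cells were collected 5 days later. The sham blood group came from sham-operated mice, and the day of its collection is not given in the sources used here. There were 3 libraries in each of the groups stroke brain, stroke blood and sham blood. Each brain library was a pool of cells from 5 mice and each blood library came from 1 mouse, so a brain library averages over animals and a blood library does not. No sham brain library was analysed here.

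In every group the cells were gated as CD11c- Ly6G- CD11b+ CD45high. Blood cells were drawn by cardiac puncture and separated on Ficoll, whereas brain cells came, after perfusion with saline, from the hemisphere on the side of the stroke, were released with an enzyme kit on a heated tissue dissociator and were separated on Percoll. Tissue and preparation therefore cannot be told apart in any comparison of brain with blood.

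Heat shock chaperones bind unfolded or misfolded proteins, keep them from aggregating and help them to fold. The HSP70 proteins bind short exposed stretches and are driven by J proteins, which stimulate their ATPase, and by exchange factors, which release the nucleotide. HSP90 acts later on partly folded clients such as kinases and steroid receptors, and the ER and the mitochondria have chaperones of their own. The transcription factor HSF1 drives the inducible members through heat shock elements, arrays of the unit NGAAN in alternating orientation, and the unfolded protein response drives ER chaperones through ER stress elements.

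Promoter sequences were searched for exact matches to these elements. Promoter windows of RefSeq (GRCm38.p6), each from 250 bases before a transcript start to 50 after it, were on hand for 7 of the 10 genes. Starts and positions given with them are those of the RefSeq transcripts, which can differ from the gene bounds given further below. These 7 genes had 10 windows, and a gene is counted below if any of its windows holds an element. Shares of all windows count each window, so the 2 measures are not alike. None was on hand for *Hspa8*, *Hsp90aa1* and *Hsp90ab1*. The inducible HSP70 genes *Hspa1a* and *Hspa1b* lie near each other on chromosome 17, and the 250 bases before their starts differed at 3 bases. The 130 bases nearest to each start are printed 5′ to 3′ on the gene's own minus strand, with the element of 2 units, GAANNTTC, in capitals (chr17:34972157-34972286 for *Hspa1a* and chr17:34959239-34959368 for *Hspa1b*).
Hspa1a: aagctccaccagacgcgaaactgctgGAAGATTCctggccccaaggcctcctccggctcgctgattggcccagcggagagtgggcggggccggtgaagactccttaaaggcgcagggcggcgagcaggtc
Hspa1b: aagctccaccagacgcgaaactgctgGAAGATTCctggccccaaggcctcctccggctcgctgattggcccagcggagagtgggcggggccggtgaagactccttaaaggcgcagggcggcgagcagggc

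An element of 2 units (GAANNTTC or TTCNNGAA, each searched on both strands) was present in 15.1% of the 32851 promoter windows, so it is common, and it was found for 5 of the 7 genes: *Hspa1a* and *Hspa1b*, both starting at position -104, *Hsph1*, *Hspd1* and *Hspe1*. The longer element of 3 units (GAANNTTC followed by NNGAA, or TTCNNGAA followed by NNTTC, which contains the shorter one) was present in 0.603% of all windows and in windows of 3 of the 7 genes, *Hsph1*, where it lay after the start, *Hspd1* and *Hspe1*. *Hspd1* and *Hspe1* run in opposite directions on chromosome 1. The window of *Hspd1* at 55088194 to 55088493 shares 4 bases with that of *Hspe1* and held none of these elements. The other window of *Hspd1* shares 285 bases with that of *Hspe1*, and a single stretch there holds the matches of both genes. It is printed on the plus strand with the overlapping elements of 3 units in capitals (chr1:55088053-55088082), and it lies within the gene bounds of *Hspd1* given below. After it come 30 bases of the minus strand before the RefSeq start of *Hsph1*, with an element of 2 units in capitals (chr5:149636351-149636380). Most of these 30 bases lie within the gene bounds of *Hsph1* given below, since the RefSeq start lies further in.
Hspe1: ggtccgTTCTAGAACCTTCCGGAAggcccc
Hsph1: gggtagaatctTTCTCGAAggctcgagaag

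The ER stress element, CCAAT followed by any 9 bases and CCACG on either strand, was present in 0.119% of all windows and in 1 of the 7 genes, *Hspa5*, at position -65. The 30 bases around it are printed on the plus strand with the element in capitals (chr2:34772020-34772049). They lie before the RefSeq start but within the gene bounds of *Hspa5* given below. Of the 14 other ER chaperone genes with a window, 6 also held it: *Hsp90b1*, *Dnajc3*, *Calr*, *Canx*, *Pdia6* and *Creld2*. No window of *Dnajb1* held these letters. A match describes the sequence and is no evidence of binding in these cells.
Hspa5: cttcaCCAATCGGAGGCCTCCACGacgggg

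Library totals ranged from 18475118 to 22623578 counts, and levels are given as counts per 1000000 counts of the library's total (CPM). All 8 monocyte/macrophage markers, among them *Csf1r*, *Itgam* and *Ptprc*, had counts in all 3 groups. All 8 microglia markers passed the test as higher in the brain, where their summed level was between 1327 and 3568 CPM against 134 to 204 CPM in blood. Other marker lists moved between brain and stroke blood too. All 4 border-associated macrophage markers tested (56.7 to 189 CPM in sum against 14.5 to 25.4), 3 of 4 dendritic cell markers (197 to 309 against 46.5 to 83.5 CPM) and 2 of 6 T and NK cell markers (408 to 890 against 201 to 595 CPM) were higher in the brain. Of 4 neutrophil markers tested, 3 were higher and 1 lower (389 to 604 against 396 to 467 CPM), and none of 4 B cell markers passed (46.7 to 90.9 against 63.9 to 108 CPM). All 7 erythroid markers (4.16 to 14.5 against 13801 to 18457 CPM), all 6 platelet markers (3.36 to 5.32 against 229 to 321 CPM) and 4 of the 8 monocyte/macrophage markers (45610 to 50772 against 97380 to 108500 CPM) were lower. Most of the monocyte/macrophage sum was *Lyz2*, at 38689 to 42806 CPM in the brain and 88724 to 98423 CPM in stroke blood. Estimates of 2 of the 8 markers were higher in the brain, and neither passed. Of the 7 neural markers, *Rbfox3* and *Mog* were at 0 in all brain libraries, *Gfap* was at 0.0533, 0.398 and 1.11 CPM, *Snap25* and *Aqp4* had counts in 1 library each, and the list summed to 126 to 192 CPM in the brain and 187 to 323 CPM in stroke blood, nearly all of it *Mbp*, which was lower in the brain (log2 fold change -0.88, edgeR adjusted p = 0.017). Of the 4 endothelial markers, *Cldn5* was at 0 in all brain libraries, *Cdh5* was at 0.426, 0.575 and 0.185 CPM, and *Pecam1*, at 28.0, 21.6 and 20.8 CPM in the brain against 8.31 to 12.9 CPM in stroke blood, was higher (1.01, adjusted p = 0.0124), while the list summed to 43.9 to 60.0 CPM against 37.3 to 53.4. The part of these shifts in the chaperone results was not tested. Sham blood 1 stood apart from the other sham libraries: its erythroid markers summed to 1223 CPM against 34182 and 30425, its platelet markers to 13.5 CPM against 378 and 536, and its immediate early gene *Egr1* was at 180 CPM against 11.6 and 7.36. The sham comparisons are therefore also given without it. B cell markers summed to 63.9 to 108 CPM in stroke blood against 123 to 238 in sham blood, and neutrophil markers to 396 to 467 against 568 to 1297 CPM. None passed, though 4 of 4 and 2 of 5 tested had an unadjusted edgeR p below 0.05, beside 12.5% of all genes. The sums of the other marker lists overlapped between the blood groups. The part of these differences in the chaperone results was not tested either. In bulk RNA, fewer cells of a type and less RNA per cell cannot be told apart.

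Brain and stroke blood were compared to ask which chaperone genes differ between macrophages in the injured hemisphere and monocytes in the blood of mice with the same injury. Higher levels in the brain were found for 5 of the 10 genes: *Hspa1a*, *Hspa5*, *Hsph1*, *Dnajb1* and *Hspd1*. None of the 10 passed as lower, though *Hspe1* did by DESeq2 and with upper quartile scaling. The inducible HSP70 gene *Hspa1a* rose 6.74-fold and the ER chaperone gene *Hspa5* 2.72-fold, while the constitutive HSP70 gene *Hspa8* and the HSP90 genes did not pass. The test was edgeR's quasi-likelihood test with Benjamini-Hochberg adjusted p-values for 13189 genes, of which 30.6% passed at an adjusted p below 0.05, 17.5% as higher and 13.1% as lower in the brain. The median log2 fold change was 0.70 over the 10 genes and 0.06 over all genes tested. A gene that passed with an absolute log2 fold change above 1 was taken as a differentially expressed gene (DEG), as were *Hspa1a* and *Hspa5* here, beside 21.0% of all genes tested (13.1% higher, 7.86% lower). The libraries of the groups did not overlap for 6 of the 10 genes, all higher in the brain, beside 49.2% of all genes tested, 31.9% as higher and 17.3% as lower. With DESeq2, with no filter and by library size only 6 of the 10 passed, the additional gene being *Hspe1* (lower), *Hspa1b* and *Hsp90ab1*, respectively, and in the fit of all 9 libraries 4 did, without *Hsph1*. With upper quartile scaling 5 passed, with *Hspe1* (lower) in place of *Hspd1* (adjusted p = 0.076). At an adjusted p below 0.01, 3 of the 10 genes passed, and with 1 library left out between 3 and 6 did, the 3 arising without stroke blood 1 and without stroke blood 3. Counts over all genes moved with the setting too. They were 4647 of 13189 with DESeq2, 4174 of 24197 with no filter and 4183 of 13189 by library size only. They were 4222 of 13189 with upper quartile scaling and 4295 of 13612 in the fit of all 9 libraries. At an adjusted p below 0.01 they fell to 2089 of 13189, without stroke blood 1 to 2741 of 13897 and without stroke blood 3 to 2996 of 13896.

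**Figure D1:**
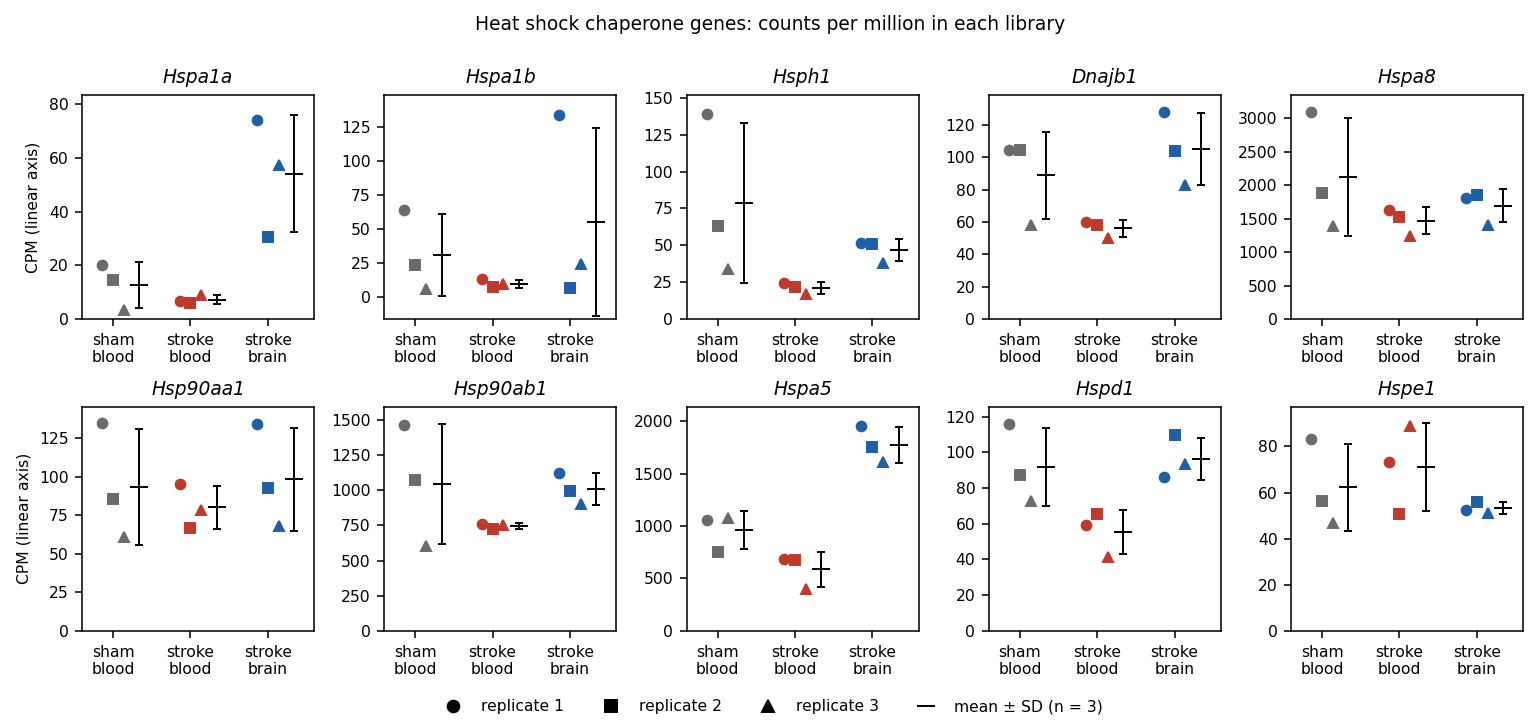
Level of each chaperone gene in each library, in CPM on a linear axis, for sham blood (grey), stroke blood (red) and stroke brain (blue). Symbols mark the replicate and black bars the mean ± SD of 3 libraries. The brain libraries of *Hspa1a* (30.7 to 73.9 CPM) and *Hspa5* (1608 to 1956 CPM) lay above all 6 blood libraries, and *Hspa1b* had a single brain library at 134 CPM.

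*Hspa1a* encodes an inducible cytosolic HSP70 (chromosome 17, 34969190 to 34972156, minus strand). Its level was 73.9, 30.7 and 57.5 CPM in brain 1, 2 and 3, and 6.56, 5.89 and 9.07 CPM in stroke blood 1, 2 and 3. Every brain library lay above every stroke blood library. The means were 54.1 ± 21.8 and 7.17 ± 1.67 CPM (SD, n = 3), and the log2 fold change was 2.75 (SE 0.34, edgeR adjusted p = 0.000475). It stayed between 2.48 and 3.04 when each library was left out in turn, and it passed each time.

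*Hspa1b* encodes a protein almost identical to that of *Hspa1a* (chromosome 17, 34956436 to 34959238, minus strand). Its level was 134.0 CPM in brain 1 but 6.32 and 24.5 CPM in brain 2 and 3, against 13.0, 7.05 and 9.12 CPM in stroke blood. Brain 2 lay below all stroke blood libraries, so the groups overlapped. The log2 fold change was 2.33 (SE 0.86, edgeR adjusted p = 0.0676), which did not pass. Brain 1 and brain 2 decide this value: without brain 1 it was 0.52 (adjusted p = 0.471), and without brain 2 it was 2.87 (adjusted p = 0.00971).

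The paired genes share much of their sequence, which makes the split of reads between them uncertain. Of the 75-base windows of their transcripts, 61.7% of those of *Hspa1a* and 55.8% of those of *Hspa1b* were found unchanged in another gene. The ratio of *Hspa1a* to *Hspa1b* counts was 0.55, 4.86 and 2.35 in brain 1, 2 and 3, between 0.50 and 0.99 in stroke blood and between 0.31 and 0.63 in sham blood. With the counts of the pair summed, which takes no account of how reads were divided between the copies, the log2 fold change between brain and stroke blood was 2.53 (SE 0.53, edgeR adjusted p = 0.00649). The exons of *Hspa1a* also overlap those of *Gm20481* on the opposite strand by 564 bases, a gene with 0 counts in the 9 libraries.

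*Hsph1* encodes an HSP110 protein, an exchange factor for HSP70 (chromosome 5, 149614287 to 149636376, minus strand). Its level was 51.4, 50.9 and 37.9 CPM in the brain and 24.6, 21.7 and 17.0 CPM in stroke blood. The groups did not overlap, and the brain mean of 46.7 ± 7.67 CPM (SD, n = 3) was 1.99-fold higher in the fit. The log2 fold change was 0.995 (SE 0.21, edgeR adjusted p = 0.00706). It passed without each library in turn, but not in a single fit of all 9 libraries (adjusted p = 0.0934).

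*Dnajb1* encodes an HSP40 J protein that delivers clients to HSP70 (chromosome 8, 83608193 to 83612653, plus strand). Its level was 128.0, 103.9 and 83.1 CPM in the brain and 60.1, 58.2 and 50.03 CPM in stroke blood. The lowest brain library was above the highest stroke blood library. The log2 fold change was 0.75 (SE 0.19, edgeR adjusted p = 0.0149), and the adjusted p was 0.0503 without stroke blood 1 and 0.0621 without stroke blood 3.

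*Hspa8* encodes HSC70, the HSP70 that cells make without stress (chromosome 9, 40800984 to 40810087, plus strand). Its level was 1814, 1856 and 1407 CPM in the brain and 1634, 1517 and 1244 CPM in stroke blood. The groups overlapped and the log2 fold change was 0.06 (SE 0.17, edgeR adjusted p = 0.830). As a share of the *Hspa8* counts, the inducible pair came to 11.5%, 2.00% and 5.83% in brain 1, 2 and 3, to 1.20%, 0.853% and 1.46% in stroke blood and to 2.72%, 2.02% and 0.647% in sham blood. All brain libraries lay above all stroke blood libraries in this share, but brain 2 lay below both sham blood 1 and sham blood 2. An exact permutation test of such a ratio was not run, since 3 libraries a group allow no two-sided p below 0.1.

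The cytosolic HSP90 genes had no difference that passed. *Hsp90aa1*, the stress-inducible form (chromosome 12, 110690605 to 110702728, minus strand), was at 134.3, 93.0 and 68.2 CPM in the brain and 95.2, 67.0 and 78.1 CPM in stroke blood. Those ranges overlapped, and the log2 fold change was 0.14 (SE 0.25, edgeR adjusted p = 0.700). *Hsp90ab1*, the constitutive form (chromosome 17, 45567775 to 45573271, minus strand), was at 1125, 998 and 901 CPM in the brain and 761, 723 and 751 CPM in stroke blood. These ranges did not overlap, but the log2 fold change of 0.28 (SE 0.14, edgeR adjusted p = 0.171) did not pass. Scaled by library size only, it was 0.44 (adjusted p = 0.0455). The ratio of *Hsp90aa1* to *Hsp90ab1* counts stayed between 7.57% and 12.5% in all 9 libraries. In *Hsp90aa1*, 42.8% of the 75-base windows occur in another gene, as do 33.0% of those of *Hspa8* and 0.537% of those of *Hsp90ab1*, so the assignment of reads is uncertain for the first 2.

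*Hspa5* encodes BiP, the HSP70 of the ER and a sensor of the unfolded protein response (chromosome 2, 34771970 to 34777547, plus strand). Its level was 1956, 1753 and 1608 CPM in the brain and 688, 674 and 396 CPM in stroke blood. The lowest brain library was more than any of the 6 blood libraries held. The means were 1773 ± 175 and 586 ± 165 CPM (SD, n = 3), and the log2 fold change was 1.45 (SE 0.21, edgeR adjusted p = 0.0012). No 75-base window of *Hspa5* was found in another gene, and none of *Hsph1* or *Dnajb1*.

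The mitochondrial partners had estimates of opposite sign. *Hspd1*, which encodes HSP60 (chromosome 1, 55077835 to 55088243, minus strand), was at 86.1, 109.5 and 93.2 CPM in the brain and 59.5, 65.3 and 41.5 CPM in stroke blood. The groups did not overlap, and the log2 fold change was 0.65 (SE 0.20, edgeR adjusted p = 0.0346). It passed in 2 of the 6 fits with 1 library left out, and the adjusted p was 0.0821 without stroke blood 1, 0.0996 without stroke blood 3, 0.129 without brain 2 and 0.0862 without brain 3. *Hspe1*, which encodes HSP10, the lid of the HSP60 chamber (chromosome 1, 55088132 to 55091307, plus strand), was at 52.5, 56.0 and 50.9 CPM in the brain and 73.4, 50.9 and 88.9 CPM in stroke blood. The ranges overlapped, and the log2 fold change was -0.58 (SE 0.22, edgeR adjusted p = 0.0749). It passed as lower without stroke blood 2 (-0.83, adjusted p = 0.0132), by DESeq2 (-0.61, adjusted p = 0.0434) and with upper quartile scaling (-0.73, adjusted p = 0.0342).

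The ratio of *Hspe1* to *Hspd1* counts was 61.0%, 51.2% and 54.6% in the brain, 123.3%, 77.9% and 214% in stroke blood and 71.9%, 64.7% and 64.2% in sham blood. All brain libraries lay below all blood libraries, and stroke blood had the widest spread. The exons of the 2 genes overlap by 112 bases on opposite strands, and whether reads were counted by strand is not given in the sources used here, so reads of that stretch cannot be assigned. Of the 75-base windows, 31.0% of those of *Hspd1* and 14.6% of those of *Hspe1* occur in another gene.

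**Figure D2:**
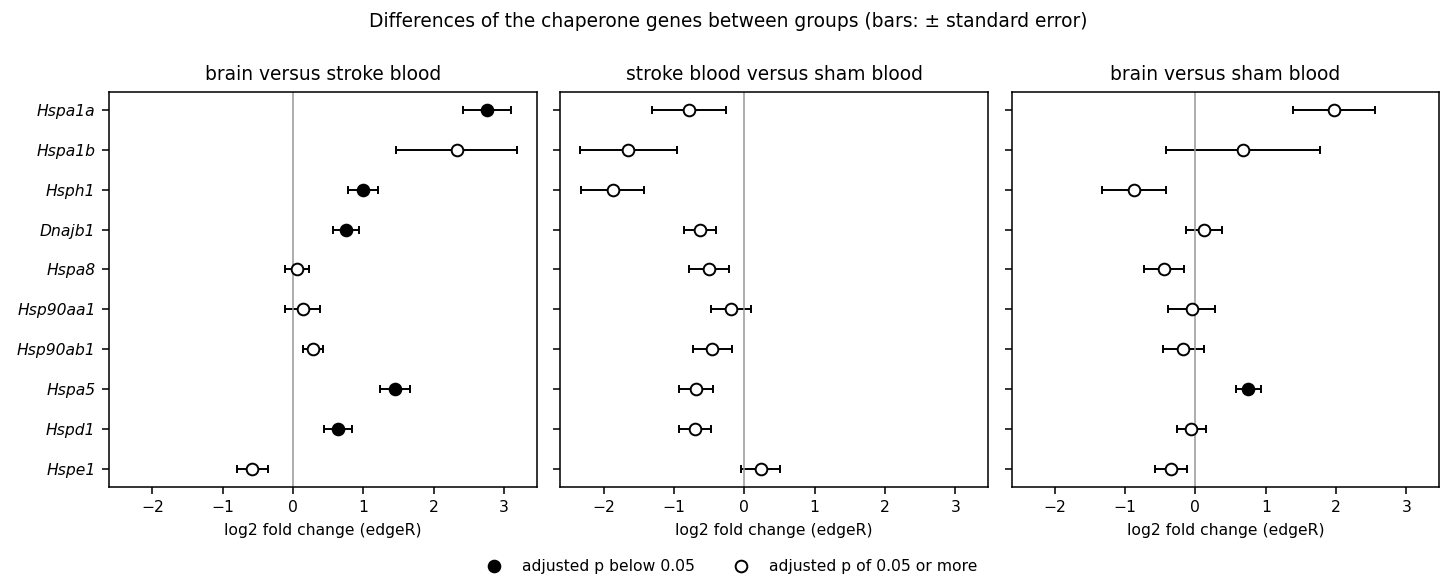
Log2 fold change of each chaperone gene in the 3 comparisons, with bars of ± 1 standard error, from edgeR. Filled points have an adjusted p below 0.05. There are 5 filled points for brain versus stroke blood, 0 for stroke blood versus sham blood and 1, *Hspa5*, for brain versus sham blood.

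Stroke blood and sham blood were compared to ask whether the stroke changed these genes in circulating monocytes. None of the 10 genes passed. Estimates were lower in stroke blood for 9 of them, with a median log2 fold change of -0.66, against -0.03 over the 12664 genes tested. Of those, 1 gene (0.00790%) passed the edgeR test, *Serpinb10*, which is no chaperone gene and was named after its value was seen, and 1581 had an unadjusted p below 0.05. Among the 10, 5 had an unadjusted p below 0.05: *Hsph1*, *Hspd1*, *Hspa5*, *Dnajb1* and *Hspa1b*. DESeq2 called 1 of the 10, *Hsph1*, and 190 genes in all. A fit with no filter on low counts called *Hsph1* and *Hspa1b*, and 207 genes in all.

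*Hsph1* had the largest estimate. Its level was 138.7, 63.2 and 33.8 CPM in sham blood 1, 2 and 3, against 17.0 to 24.6 CPM in stroke blood. The groups did not overlap for 3 of the 10 genes, *Hsph1*, *Hspa5* and *Hspd1*, all lower in stroke blood, beside 18.7% of all genes tested, 10.5% as lower and 8.23% as higher. The log2 fold change was -1.87 (SE 0.45, edgeR adjusted p = 0.285). DESeq2 gave -1.86 with an adjusted p of 0.00122, and the edgeR fit with no filter -1.89 with an adjusted p of 0.000268. Without sham blood 1 it was -1.15 (edgeR adjusted p = 0.112).

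Much of the spread in sham blood followed the library. Sham blood 1 was the highest of its group for 9 of the 10 genes and the highest of all 9 libraries for 5 of them. Sham blood 3 was the lowest of its group for 9. *Hspa1b* ranged 11.6-fold within sham blood (64.2, 23.4 and 5.52 CPM), *Hspa1a* 5.79-fold (20.0, 14.6 and 3.46 CPM) and *Hsph1* 4.11-fold, while in stroke blood the same genes ranged between 1.44-fold and 1.85-fold. The summed level of the 10 genes was 6275, 4137 and 3350 CPM in sham blood 1, 2 and 3, and 3416, 3189 and 2684 CPM in stroke blood. Sham blood 1, the library with the low erythroid and platelet sums, also had the highest summed level of the 12 immediate early genes in blood, 6375 CPM against 2720.5 to 5165 CPM in the other blood libraries. The part of these differences in the chaperone levels was not tested.

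The other genes are given next. *Hspa8* was at 3094, 1876 and 1389 CPM in sham blood, and its log2 fold change in stroke blood was -0.50 (SE 0.28, edgeR adjusted p = 0.483). *Hsp90ab1* was at 1461, 1069.6 and 603 CPM, around a stroke blood range of 723 to 761 CPM, and *Hsp90aa1* at 134.6, 85.6 and 60.7 CPM. The groups overlapped for both HSP90 genes. *Hspa5* was the exception to the order of libraries, with 1059, 756 and 1077 CPM in sham blood and a log2 fold change of -0.69 (SE 0.24, edgeR adjusted p = 0.330). *Hspd1* was at 115.8, 87.4 and 72.9 CPM, *Dnajb1* at 104.5, 104.4 and 57.9 CPM and *Hspe1* at 83.3, 56.5 and 46.8 CPM. Without sham blood 1, none of the 10 genes passed either. Estimates were then lower in stroke blood for 8 of them, with a median of -0.38, and that of *Hspa1b* moved from -1.65 to -0.52 and that of *Hspa8* to -0.11.

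**Figure D3:**
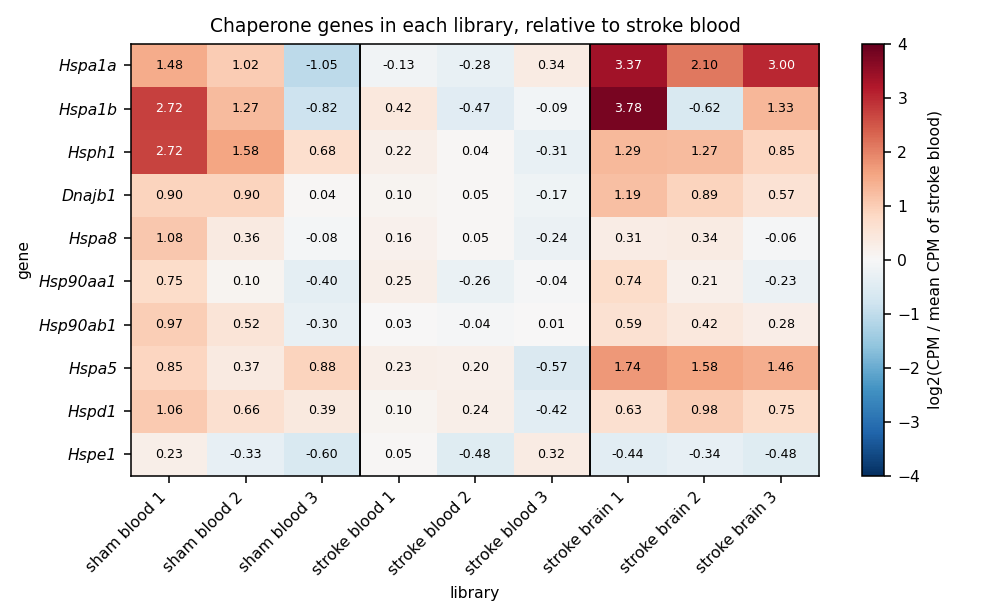
Level of each chaperone gene in each library as log2 of its CPM over the mean CPM of the 3 stroke blood libraries. Red is above and blue below that mean, and vertical lines divide the groups. Sham blood 1 was above the stroke blood mean for all 10 genes and sham blood 3 for 4 of them.

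Brain and sham blood were compared as a second reference for the brain libraries, which are shared with the comparison against stroke blood. Only *Hspa5* of the 10 genes passed, with a log2 fold change of 0.75 (SE 0.18, edgeR adjusted p = 0.0245), a rise of 1.68-fold. Of the 13020 genes tested, 19.8% passed, 12.1% as higher and 7.68% as lower in the brain, and 13.4% were DEGs (9.75% higher, 3.67% lower), as none of the 10 was. The median log2 fold change was -0.06 over the 10 genes and 0.01 over all genes tested. The brain libraries of *Hspa5* (1608 to 1956 CPM) lay above those of sham blood (756 to 1077 CPM). Its adjusted p was 0.0359 without sham blood 1 and between 0.0507 and 0.0736 without each of the 5 other libraries.

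*Hspa1a* did not overlap between brain and sham blood either, with a log2 fold change of 1.96 (SE 0.58, edgeR adjusted p = 0.0509). It passed without sham blood 1 (2.48, adjusted p = 0.0439), by DESeq2 (adjusted p = 0.00198), with no filter (adjusted p = 0.0188), by library size only (adjusted p = 0.0449) and in the fit of all 9 libraries (adjusted p = 0.0237). Summed with *Hspa1b*, the log2 fold change was 1.18 (adjusted p = 0.339). *Hspa1b* alone had an estimate of 0.68 (SE 1.09, adjusted p = 0.700), which was -1.13 without brain 1. *Hsph1*, which passed as higher in the brain against stroke blood, had an estimate of -0.88 against sham blood (SE 0.45, adjusted p = 0.215), which was -0.16 without sham blood 1. *Dnajb1* was at 0.12 (SE 0.26, adjusted p = 0.778) and *Hspd1* at -0.06 (SE 0.20, adjusted p = 0.868). The groups did not overlap for 2 of the 10 genes, *Hspa5* and *Hspa1a*, beside 41.7% of all genes tested, 27.4% as higher and 14.2% as lower.

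**Figure D4:**
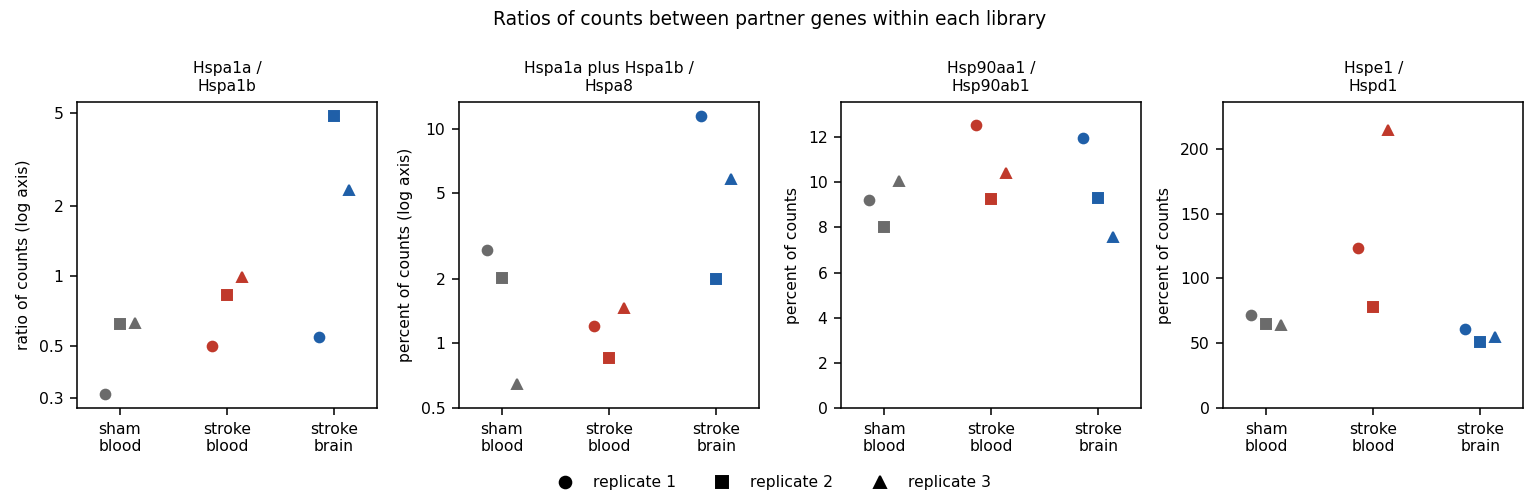
Ratios of counts between partner genes within each library: *Hspa1a* over *Hspa1b* and the sum of both over *Hspa8* (log axes), *Hsp90aa1* over *Hsp90ab1* and *Hspe1* over *Hspd1* (linear axes from 0). The *Hsp90* ratio stayed between 7.57% and 12.5%, and *Hspe1* over *Hspd1* was lower in all brain libraries (51.2% to 61.0%) than in all blood libraries (64.2% to 214%).

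Levels can be set between genes only per length, as CPM per 1000 bases of exon (kb), with the exons of all annotated transcripts of a gene merged. The order therefore depends on the annotated length, which was largest for *Hsph1* at 7266 bases. It also depends on reads that may be shared with other genes, above all for *Hspa1a*, *Hspa1b*, *Hsp90aa1* and *Hspa8*. *Hspa8*, *Hsp90ab1* and *Hspa5* held the 3 highest ranks in every group, and the lowest of their library values, 93.6 CPM per kb, was above the highest of the other 7 genes, 60.3 CPM per kb. In stroke blood their order was *Hspa8* (341 CPM per kb), *Hsp90ab1* (248 CPM per kb) and *Hspa5* (139 CPM per kb), and no neighbours overlapped. In the brain *Hspa5* was first at 419 CPM per kb, with *Hspa8* at 393 and *Hsp90ab1* at 336 CPM per kb, and their ranges overlapped. *Hspe1* came next in stroke blood at 48.2 CPM per kb, above *Hspd1* at 20.99, whereas in the brain they stood at 36.1 and 36.4 CPM per kb with overlapping ranges. *Hspa1b*, *Hsph1* and *Hspa1a* closed the order in both blood groups, at 3.47, 2.90 and 2.42 CPM per kb in stroke blood with overlapping neighbours. *Hsph1* was last in the brain at 6.43 CPM per kb, below every library of *Hspa1a* (mean 18.2 CPM per kb).

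The wider chaperone network was described by 8 lists of genes. Of 17 HSP70 cofactors, 4 passed as higher in the brain than in stroke blood and none as lower, beside 17.5% and 13.1% of all genes tested, with a median log2 fold change of 0.42 beside 0.06 over all genes. The J protein gene *Dnaja1* rose by a log2 fold change of 1.42 (SE 0.21, edgeR adjusted p = 0.00127), from 86.3 to 131 CPM in stroke blood to 266 to 390 CPM in the brain, though its exons overlap those of *Smu1* on the opposite strand. *Stip1*, which encodes HOP, the bridge between HSP70 and HSP90, rose by 0.83 (adjusted p = 0.00421), and *St13*, which encodes the HSP70-interacting protein HIP, by 0.79 (adjusted p = 0.00645). By library size only, 8 of the 17 passed, beside 4183 of 13189 over all genes.

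Of 11 HSP90 cochaperones, 2 passed as higher and 1 as lower, where 30.6% of all genes passed in either direction, with a median of 0.30. *Fkbp5*, the glucocorticoid-responsive immunophilin of steroid receptor complexes, had the largest rise at 2.26 (SE 0.24, edgeR adjusted p = 0.000225): 24.4, 30.5 and 36.2 CPM in the brain against 5.45, 5.66 and 5.99 CPM in stroke blood. Its sham blood level was 15.2, 27.5 and 27.5 CPM, so stroke blood was the low group, with a log2 fold change of -1.99 against sham blood that did not pass (SE 0.27, adjusted p = 0.150). It did pass without sham blood 1 (-2.22, adjusted p = 0.0101), by DESeq2 (adjusted p = 5.31e-08) and with no filter (adjusted p = 6.16e-05). The myosin chaperone gene *Unc45a* rose by 0.52 (adjusted p = 0.0428), and *Sugt1* fell by 0.60 on the log2 scale (adjusted p = 0.0215). With 1 library left out, *Fkbp5* passed in 6 of 6 fits, *Sugt1* in 3 and *Unc45a* in 0.

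Of 17 other ER chaperones, 8 passed as higher and none as lower, beside 17.5% and 13.1% of all genes, with a median of 0.36. The named ones were *Creld2* at 0.98 (SE 0.20, edgeR adjusted p = 0.00618) and the disulfide isomerase genes *Pdia4* at 0.72 (adjusted p = 0.0159) and *Pdia6* at 0.66 (adjusted p = 0.0092). None of the 8 was a DEG, so *Hspa5* had a larger estimate than each of them. Only 2 passed without brain 2, 3 without brain 3 and 4 without stroke blood 1 or without stroke blood 3. Calls over all genes also fell, from 4035 of 13189 to 2848 of 13726 without brain 2 and 2915 of 13753 without brain 3. They were 2741 of 13897 without stroke blood 1 and 2996 of 13896 without stroke blood 3. *Xbp1*, a regulator of the unfolded protein response listed beside *Atf6*, *Ern1* and *Eif2ak3*, was lower in the brain at -0.58 (SE 0.16, edgeR adjusted p = 0.0236). It was the only call among 7 heat shock and unfolded protein response regulators tested of 8. *Xbp1* passed in 2 of the 6 fits with 1 library left out.

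Of 9 mitochondrial chaperones, 2 passed as higher and 1 as lower, and of 14 subunits of TRiC and prefoldin 1 and 2, beside 30.6% of all genes in either direction. The mitochondrial ones were *Hspa9*, the mitochondrial HSP70, at 0.96 (SE 0.22, edgeR adjusted p = 0.00937), its J protein *Dnaja3* at 0.74 (adjusted p = 0.0305), whose exons overlap those of *Coro7*, and the iron-sulfur cochaperone gene *Hscb* at -1.08 (adjusted p = 0.00716). Among the subunits of TRiC and prefoldin, which fold and deliver actin and tubulin, the TRiC gene *Cct3* rose by 0.58 (adjusted p = 0.0221) and the prefoldin genes *Pfdn5* and *Pfdn4* were lower, at -1.47 (adjusted p = 0.000342) and -1.14 (adjusted p = 0.00901). Exons of *Pfdn5* overlap those of *Myg1*. With 1 library left out, *Hspa9*, *Hscb*, *Pfdn5* and *Pfdn4* passed in 6 of 6 fits, *Dnaja3* in 2 and *Cct3* in 1. Of 8 small heat shock protein genes, 2 had enough counts to be tested, *Hspb6* and *Cryab*, and neither passed.

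The immediate early genes are transcription factors and feedback genes induced within minutes by many stimuli. Of 12, 10 passed as higher than in stroke blood, all of them DEGs, with a median of 2.14. Of all genes tested, 17.5% passed as higher and 13.1% were DEGs higher in the brain. The summed level of the 12 genes was 16624 to 18611 CPM in the brain against 4082 to 5165 CPM in stroke blood. *Egr1* rose by 4.79 (SE 0.28, edgeR adjusted p = 1.14e-05), *Atf3* by 3.33 (adjusted p = 4.85e-06) and *Ier3* by 2.99 (adjusted p = 0.000895). Their part in the chaperone levels was not tested.

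In stroke blood against sham blood, none of the 89 genes tested of the 8 lists passed the edgeR test, 16 had an unadjusted p below 0.05 and DESeq2 called 5. Of all 12664 genes tested, 12.5% had an unadjusted p below 0.05 and DESeq2 called 190 genes. The median log2 fold changes of the HSP70 cofactors (-0.34), HSP90 cochaperones (-0.42) and other ER chaperones (-0.33) were below the median of all genes of -0.03. Without sham blood 1 they were -0.25, -0.28 and -0.31, and that of all genes was -0.03. *Dnaja1* was at -1.35 (SE 0.43, edgeR adjusted p = 0.315) and at -0.68 without sham blood 1 (adjusted p = 0.292), and it passed as lower by DESeq2 (adjusted p = 0.0369) and with no filter (adjusted p = 0.00528). Against sham blood, 12.1% of all genes tested passed as higher in the brain and 7.68% as lower. In that comparison the brain had 1 call among the HSP70 cofactors, *Hspa4l*, lower at -0.94 (edgeR adjusted p = 0.0331). It had 1 among the ER chaperones, *Sil1*, higher at 0.68 (adjusted p = 0.022). These single genes were named after their values were seen. With 1 library left out, *Hspa4l* passed in 1 of 6 fits and *Sil1* in 2. *Hspa9* was higher at 0.61 (adjusted p = 0.0371), *Hscb* (-0.79), *Pfdn5* (-0.77) and *Xbp1* (-0.79) were lower, and 8 of the 12 immediate early genes were higher. Of these, *Pfdn5* passed in 6 of 6 fits with 1 library left out, *Xbp1* in 4 and *Hspa9* and *Hscb* in 2 each. The immediate early genes numbered 12 without sham blood 1 and 5 without sham blood 2 or without sham blood 3. Over all genes, 2085 of 13798 passed without sham blood 1, 1589 of 13647 without sham blood 2 and 1434 of 13761 without sham blood 3. In the main fit 2572 of 13020 did.

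**Figure D5:**
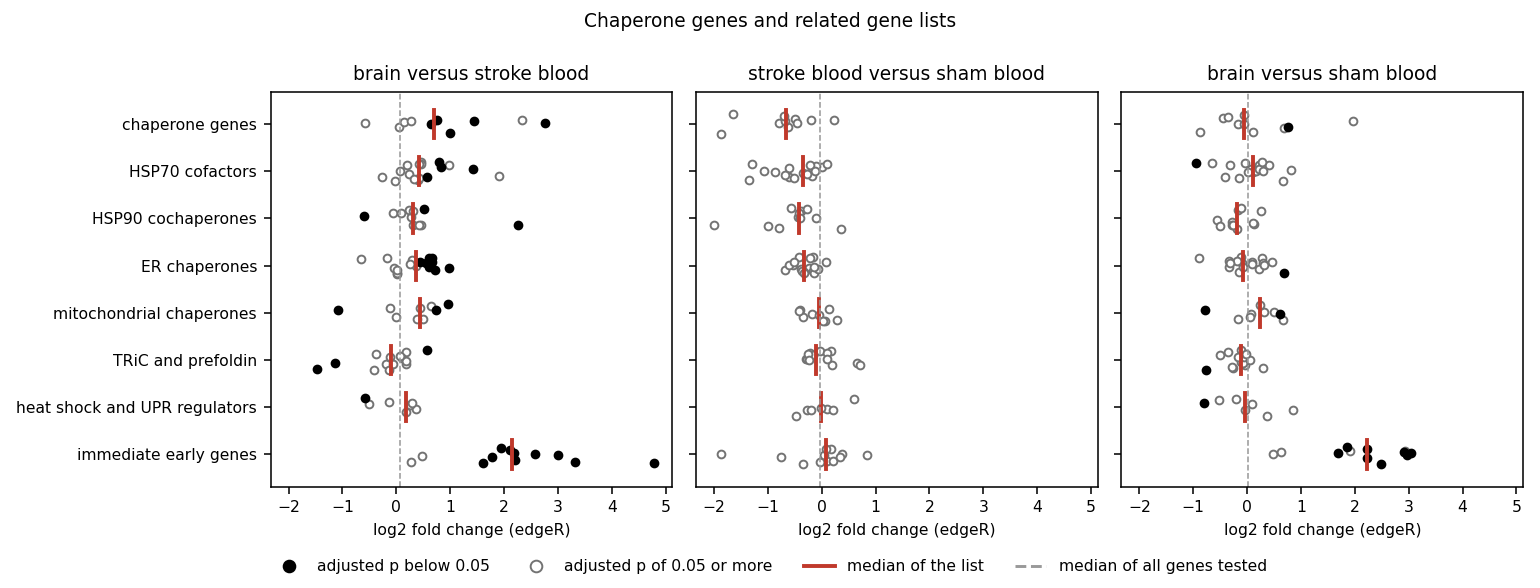
Log2 fold changes (edgeR) of the chaperone genes and 7 related lists in the 3 comparisons. Each point is a gene, filled where the adjusted p is below 0.05, red bars are list medians and dashed lines the median of all genes tested. The immediate early genes stand highest in the comparisons with the brain (medians 2.14 and 2.22), and no point is filled for stroke blood versus sham blood.

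Across the 9 libraries, the genes whose log2(CPM + 0.5) followed the inducible genes most closely (the mean of standardized values of *Hspa1a*, *Hspa1b*, *Hsph1* and *Dnajb1*) were *Spin1* and *Bclaf1* (Pearson's r = 0.959 each), *Rilpl2* (0.950), *Tbc1d31* (0.942) and *Tex30* (0.935). *Rilpl2* was at 141 CPM in brain 1, 85.4 CPM in sham blood 1 and between 42.9 and 78.0 CPM elsewhere. For *Hspa5* they were *Sec23b* (0.984), a coat protein gene of ER export, *Lrrc59* (0.983), an ER membrane protein gene, *Txnrd1* (0.983), the cytosolic thioredoxin reductase gene, *Mkln1* (0.977) and *Nars* (0.976), a tRNA synthetase gene. These coefficients describe the libraries only, since libraries of a group share tissue and preparation. Among the 10 genes themselves, *Hsph1* and *Hspa8* had the highest coefficient (0.904), and *Hspe1* had coefficients from -0.565, with *Hspa5*, to 0.424, with *Hsp90aa1*.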

How the data were processed

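RNA was sequenced from 9 libraries of sorted cells, grouped by tissue and surgery as their labels give them. Per the study's methods, cDNA was made with the SMART-Seq HT kit and libraries with Nextera XT, reads were mapped to GRCm38 with HISAT2, and the deposited values are raw counts per Ensembl gene from HTSeq, without normalization. Versions and the strand setting are not given in the sources used here. Amplified reads without molecular identifiers are not independent molecules. Of the 53801 genes, 28399 had no count in any library. Symbols came from GENCODE M21, which held 53620 of the identifiers. Starts in the files count from 0 and are printed from 1. All 10 chaperone genes passed the filter on low counts in each comparison.

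Each pair of groups was fitted alone with edgeR 4.0.16 in R 4.3.3 (TMM, filterByExpr, quasi-likelihood test, Benjamini-Hochberg adjustment). The p-values set the difference between groups against the spread between these libraries. In comparisons with the brain that spread is estimated jointly from pools of 5 mice and from single-mouse blood libraries. The standard error is the log2 fold change over the square root of F. The study used DESeq2, which was an alternative here (1.42.0). Replicates differed by more than counting noise (chi-square per degree of freedom 23.9 to 136), so each counts once. The fit was also run on simulated counts with the same spread in both groups. That run cannot show how the fit behaves with pools beside single-mouse libraries. Tables and figures used Python 3.11.15, pandas 2.3.3 and matplotlib 3.10.9. Promoter windows came from RefSeq tables of GRCm38.p6, and 75-base windows from GENCODE transcripts.

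The members and lists were chosen with earlier results of these data known. All members are named, and from each list up to 3 genes with the largest rise and up to 2 with the largest fall among those that passed without overlap in brain versus stroke blood, any gene that passed in stroke versus sham blood, and the 5 genes with the highest correlations. Each choice was also changed alone. The test was replaced by DESeq2, the filter was dropped or raised to 50 counts on average, and TMM was replaced by RLE, by upper quartile scaling or by the library size. Other fits took all 9 libraries together, added the replicate number as a block, set the threshold at 0.01, summed *Hspa1a* and *Hspa1b*, or left out 1 library.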

Additional observations from a re-analysis of the deposited data

How the results depend on the processing

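For brain versus stroke blood, the number of chaperone genes that passed was 5, was 6 with DESeq2, no filter and library size only and 4 in the fit of all 9 libraries, fell to 3 at an adjusted p below 0.01 and ranged from 3 to 6 with each library left out; the number of DEGs was 2 or 3 throughout. For stroke blood versus sham blood, it was 0 except with DESeq2 (1) and no filter (2), the same for DEGs, and 0 with each library left out. For brain versus sham blood, it was 1 and became 2 with DESeq2, no filter, library size only and the fit of all 9 libraries, 0 at an adjusted p below 0.01 and 0 to 2 with each library left out; DEGs became 1 in those 4 fits and 0 to 1 with each library left out. Library size only shifted the median of all genes by 0.15 against stroke blood and 0.12 against sham blood, and upper quartile scaling by -0.15 against stroke blood. Counts over all genes moved too. For brain versus stroke blood they ranged from 2741 to 4147 with each library left out, beside 4035 in the main fit. For brain versus sham blood they ranged from 1434 to 2663, beside 2572. In that comparison DESeq2 called 3450 genes, and 865 passed at an adjusted p below 0.01. Why a setting moved a count was not tested.

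The labels give no link between same-numbered libraries, and their deviations did not go together (correlations from -0.07 to 0.066), so the libraries were not paired. These correlations cannot exclude a link, since the deviations are from means of 3 libraries and each brain library pools 5 mice. With the replicate block 5, 0 and 1 chaperone genes passed in the 3 comparisons, as without it, and with it 3560, 1 and 2096 of all genes passed against 4035, 1 and 2572.

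The estimates that changed sign were of genes that had not passed. Upper quartile scaling turned *Hspa8* (-0.096) and *Hsp90aa1* (-0.016) against stroke blood and *Dnaja1* (-0.018) against sham blood; library size only turned *Hsp90aa1* (0.074), *Hspd1* (0.066) and *Stip1* (0.075) against sham blood. With each library left out, the ranges for brain versus stroke blood were -0.064 to 0.175 for *Hspa8* and -0.131 to 0.35 for *Hsp90aa1*. For stroke blood versus sham blood they were -0.43 to 0.179 for *Hsp90aa1*, -2.402 to 0.967 for *Egr1* and -1.204 to 0.208 for *Ier3*, each with its highest value without sham blood 1. For brain versus sham blood they were -1.129 to 1.816 for *Hspa1b*, -0.118 to 0.265 for *Dnajb1*, -0.33 to 0.32 for *Hsp90aa1*, -0.458 to 0.163 for *Hsp90ab1*, -0.206 to 0.155 for *Hspd1*, -0.305 to 0.74 for *Dnaja1*, -0.012 to 0.178 for *Pdia4*, -0.255 to 0.185 for *Stip1* and -0.073 to 0.206 for *Unc45a*.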
